A study of Mus musculus with 37 samples.

Results

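Members of the miR-17-92, miR-106a-363 and miR-106b-25 microRNA clusters were followed in whole blood of ageing mice, 9 out of 1915 mature microRNAs in the count table. They were chosen by name (mmu-miR-17-5p, mmu-miR-18a-5p, mmu-miR-19a-3p, mmu-miR-19b-3p, mmu-miR-20a-5p, mmu-miR-20b-5p, mmu-miR-93-5p, mmu-miR-106a-5p and mmu-miR-106b-5p), with the first row of each in the table and without the members of the same clusters that carry the miR-25/92 seed. All were found. Small RNA was sequenced from total blood of male wild-type C57BL/6 mice (substrain J in the study's methods) assigned to the water maze, a test of spatial memory. The labels name no transgene and no agent, and all groups used here shared this strain. At 12 months of age 9 libraries were made, 12 followed at 13.5 months, 5 at 15 and 11 at 16.5 months. Blood was drawn from the orbital sinus, at the later ages a day after the last probe test. The study's methods place the first draw before any behavioural test, whereas a figure legend describes draws after each round of the maze, so whether the youngest mice had been trained is uncertain. The same cohort was bled repeatedly, but the labels do not say which libraries came from 1 mouse. The p-values therefore measure the spread between libraries, and age cannot be told apart from repeated training and bleeding.

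MicroRNAs are short RNAs cut from hairpin precursors, and they lower the output of messenger RNAs that pair with their seed, the bases 2 to 8 from the 5′ end. A hairpin yields a 5p and a 3p arm, of which usually 1 is kept. The 3 clusters arose by duplication and are transcribed as single precursors. They are known as oncomirs because they drive proliferation and survival, and in blood miR-17-92 is needed for B cell development.

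The mature sequences below show which members share a seed, since the members are described by seed in what follows. The seed is in capitals, and positions are those of RefSeq on GRCm38.p6.
mmu-miR-93-5p: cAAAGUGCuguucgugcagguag
mmu-miR-106b-5p: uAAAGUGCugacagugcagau
mmu-miR-17-5p: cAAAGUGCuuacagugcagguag
mmu-miR-20a-5p: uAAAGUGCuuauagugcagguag
mmu-miR-20b-5p: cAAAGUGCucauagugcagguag
mmu-miR-106a-5p: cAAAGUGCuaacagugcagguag
mmu-miR-18a-5p: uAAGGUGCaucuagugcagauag
mmu-miR-19a-3p: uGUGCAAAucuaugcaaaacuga
mmu-miR-19b-3p: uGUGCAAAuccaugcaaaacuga
The upper 6 sequences share the seed of miR-17, miR-18a-5p differs from miR-17-5p within it by A4G, and both miR-19 members carry another seed. Positions count from 1 at the 5′ end, and the base of the microRNA compared against stands first. Against miR-17-5p, miR-106a-5p differs by U10A alone, and against miR-19a-3p, miR-19b-3p differs by U11C alone. The reads were counted with no mismatch allowed, so these pairs were separated by 1 base, and the smaller member of a pair is uncertain. miR-106a-5p had 16 reads, or 0.915% of those of miR-17-5p.

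The miR-17-92 hairpins span 836 bases on chromosome 14 (chr14:115043671-115044506, plus strand), all 6 within exons of the non-coding host transcript Mir17hg. They give miR-17-5p (chr14:115043684-115043706), miR-18a-5p (chr14:115043867-115043889), miR-19a-3p (chr14:115044048-115044070), miR-20a-5p (chr14:115044183-115044205) and 1 copy of miR-19b-3p (chr14:115044358-115044380). The miR-106b-25 hairpins span 498 bases on chromosome 5 (chr5:138165321-138165818, minus strand) inside Mcm7, which encodes a subunit of the replicative helicase. The Mir106b hairpin is in an intron, and those of Mir93 and Mir25 overlap exons of a non-coding Mcm7 transcript but none of a protein-coding one. They give miR-106b-5p (chr5:138165787-138165807) and miR-93-5p (chr5:138165574-138165596). The miR-106a-363 hairpins span 875 bases on the X chromosome (chrX:52741693-52742567, minus strand), where Mir106a overlaps the end of the non-coding gene Kis2 and no host gene was annotated over the other 4. They give miR-106a-5p (chrX:52742541-52742563), miR-20b-5p (chrX:52742159-52742181) and the second copy of miR-19b-3p (chrX:52741991-52742013). Both copies of miR-19b-3p have the same sequence, and the counts do not separate them.

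The libraries held 2619533 to 20268095 counted reads, with both miR-486 entries, miR-486a-5p and miR-486b-5p, in these totals and in those behind CPM. When miR-486b-5p was left out of the total, miR-486a-5p, an abundant microRNA of red cells, made up 79.6% to 94.2% of what remained. Outside miR-486 there were 140292 to 1131713 reads, so the members were measured at a shallow depth. Of the markers of blood cells, miR-451a, miR-486a-5p, miR-144-5p, miR-16-5p, miR-142a-3p, miR-142a-5p, miR-223-3p and miR-150-5p had reads in every library. miR-144-3p and miR-155-5p were at 0 in 1 library each, and miR-126a-3p, of platelets and endothelium, in 5. Of the muscle markers, miR-1a-3p had 0 reads, but miR-133a-3p had 1530 reads, with some in every library and a median of 21. In all libraries together the liver marker miR-122-5p had 13 reads, and the brain markers miR-9-5p and miR-124-3p had 22 and 6. In bulk blood, fewer cells of a type and less RNA per cell cannot be told apart. The 4 libraries with under 200000 reads outside miR-486 (12 months replicate 3, 13.5 months replicate 1, 15 months replicate 1 and 16.5 months replicate 10) stand apart by depth, and results that rest on them are given with and without them.

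miR-93-5p was the most abundant member, with 27861 of the 37445 reads of all members (74.4%). miR-19b-3p followed with 4986 reads (13.3%), miR-106b-5p with 2148, miR-17-5p with 1748, miR-19a-3p with 318, miR-20a-5p with 248 and miR-18a-5p with 99. miR-20b-5p had 21 reads and was at 0 in 22 libraries, and miR-106a-5p was at 0 in 25 libraries. Within a library a count of 0 allows up to 3 reads, which is 0.142 to 2.28 CPM (the read count scaled to the library total and its TMM factor), so neither could be compared between ages. The members together made up 0.0455% to 0.372% of the reads outside miR-486 (median 0.167%). All 37 libraries had more reads of miR-93-5p than of miR-19b-3p, and 36 had more of miR-19b-3p than of miR-106b-5p. miR-106b-5p and miR-17-5p were not separated in this order, since miR-106b-5p was higher in 26 libraries and lower in 11. The same holds for miR-19a-3p and miR-20a-5p (24 against 11, with 2 equal) and for miR-20b-5p and miR-106a-5p (10 against 8, with 19 equal). miR-17-5p had more reads than miR-19a-3p in 36 libraries, with 1 equal, and miR-20a-5p more than miR-18a-5p in 30.

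miR-93-5p, the most abundant member with the miR-17 seed, was lower at 16.5 than at 12 months. Its level was 105.4 ± 35.5 CPM at 12 months (SD, n = 9) and 92.7 ± 31.8 at 13.5 months (n = 12). It was 60.2 ± 15.9 at 15 months (n = 5) and 62.4 ± 12.2 at 16.5 months (n = 11). At 12 months the libraries ran from 62.5 to 156 CPM with a median of 104. At 13.5 months they ran from 50.9 to 154 with a median of 82.8. The 5 libraries at 15 months had 39.1, 72.6, 47.1, 70.7 and 71.5 CPM, and those at 16.5 months ran from 38.8 to 80.1 with a median of 66.5. All libraries at both later ages were thus under the 12-month median, although the groups overlap. The median of miR-16-5p, an abundant microRNA of red cells, was 6245, 5000, 3951 and 3966 CPM at the 4 ages. Other red cell markers took other courses. The medians of miR-451a were 5918, 2093, 5774 and 4283 CPM, and miR-144-3p and miR-144-5p were also lowest at 13.5 months. Those of miR-486a-5p were 368948, 413860, 603070 and 432909 CPM. The part of these markers in the values of miR-93-5p was not tested.

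**Figure D1:**
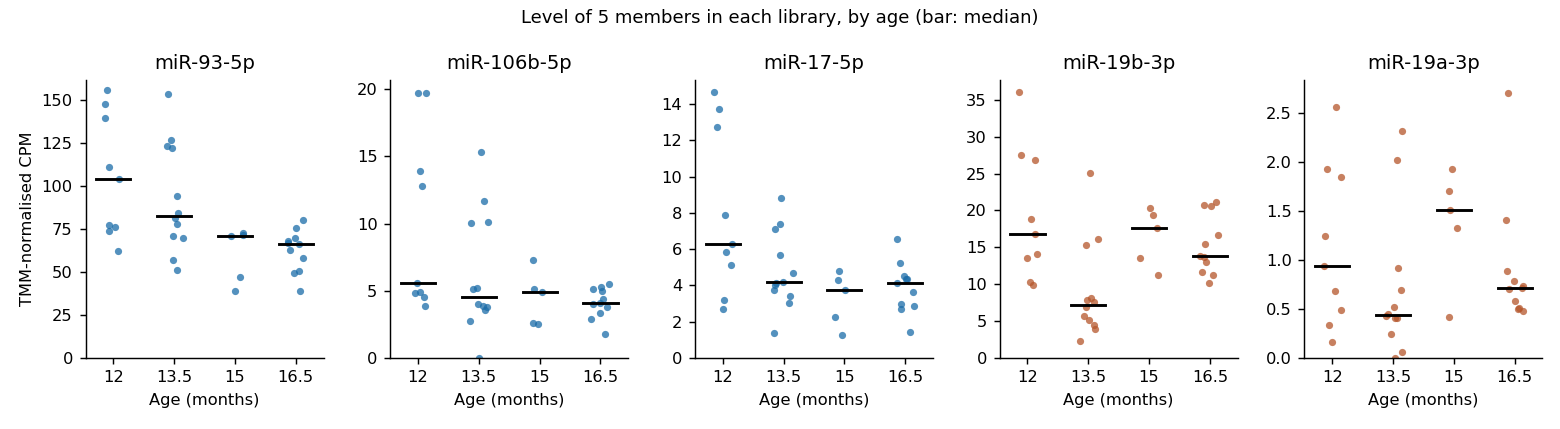
TMM-normalised CPM (y axis) of 5 members in each of the 37 libraries by age in months (x axis), each point a library and each bar the median of an age. miR-93-5p, miR-106b-5p and miR-17-5p (blue) had their highest libraries at 12 and 13.5 months, and miR-19b-3p (brown) had its lowest median, 7.23 CPM, at 13.5 months.

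Only miR-93-5p and miR-19b-3p, 2 of the 9 members, had over 100 reads in 50% or more of the libraries and entered the test over 87 microRNAs (edgeR's quasi-likelihood test, Benjamini-Hochberg adjustment). Both differed between ages, miR-93-5p with an adjusted p of 0.0016 and miR-19b-3p with one of 0.0092, where 58.6% of the 87 microRNAs did. The call of miR-93-5p stayed in all 37 leave-outs, while that of miR-19b-3p was lost in 12 of them (adjusted p up to 0.11 by edgeR), scaled by the total count (0.12) and without a filter (0.081). At 16.5 against 12 months miR-93-5p was 1.69-fold lower (log2 fold change -0.76 ± 0.19 SE, adjusted p = 0.0045 by edgeR), and 19.5% of the 87 were called. At 16.5 against 13.5 months it was 1.49-fold lower (log2 fold change -0.57 ± 0.18, adjusted p = 0.0081 by edgeR), where 49.4% were called. Against 13.5 months the 5 libraries at 15 months were 1.54-fold lower (log2 fold change -0.62 ± 0.24, adjusted p = 0.033 by edgeR), where 39.1% were called.

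At 15 against 12 months edgeR called 0 of 87 microRNAs (0%), with 16 at an unadjusted p under 0.05 and 8 called by DESeq2. miR-93-5p was among both, with a log2 fold change of -0.80 ± 0.25 and an adjusted p of 0.051 by edgeR. It was not called at 13.5 against 12 months (log2 fold change -0.18 ± 0.19, adjusted p = 0.43 by edgeR) or at 16.5 against 15 months (0.05 ± 0.23, adjusted p = 1.0 by edgeR), where 3.45% of the 87 were called. The comparisons share libraries and are not independent of each other. The call of miR-93-5p at 16.5 against 12 months was lost without 12 months replicate 3 (log2 fold change -0.60), 16.5 months replicate 5 (-0.53), 6 (-0.59) or 7 (-0.57), with adjusted p up to 0.062 by edgeR, and scaled by the total count (-1.09) or without a filter (-0.74). TMM scales libraries to 1 reference library, which in each of these 4 leave-outs changed to 13.5 months replicate 5. 12 months replicate 3 and 16.5 months replicate 5 themselves lay near the mean of their age (104.3 and 63.0 CPM). The part of the changed reference in the lost calls was not tested. At 15 against 13.5 months the call of miR-93-5p was lost without 13.5 months replicate 11 (-0.53) or without the 4 shallow libraries together (-0.55). It was also lost with the lower filter (-0.73), scaled by the total count (-1.17) or by the total outside miR-486 (-0.53). The same held with the replicate number as a block (-0.46) and without a filter (-0.74, adjusted p = 0.23 by edgeR).

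The rarer members could be tested only with a lower filter (over 1 read in 50% or more of the libraries), which kept 323 microRNAs and 7 of the 9 members. With it, miR-93-5p, miR-17-5p (adjusted p = 0.022) and miR-106b-5p (adjusted p = 0.034) differed between ages by edgeR, 3 of 7, where 32.2% of the 323 did. miR-19b-3p had an adjusted p of 0.052, miR-20a-5p of 0.091, miR-18a-5p of 0.17 and miR-19a-3p of 0.43 in this test.

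At 16.5 against 12 months 4 of the 7 members were called by edgeR, all lower, beside 14.2% of the 323 called in either direction and 9.60% called lower. The 4 were the tested members with the miR-17 seed. miR-106b-5p was 2.31-fold lower (log2 fold change -1.21 ± 0.36, adjusted p = 0.022 by edgeR). miR-17-5p, the founding member of the family, was 1.95-fold lower (-0.96 ± 0.29, adjusted p = 0.025 by edgeR) and miR-20a-5p was 2.22-fold lower (-1.15 ± 0.39, adjusted p = 0.043 by edgeR). miR-93-5p was 1.63-fold lower with this filter (-0.70 ± 0.21, adjusted p = 0.022 by edgeR). The log2 fold change of miR-18a-5p was -1.30 ± 0.51 with an adjusted p of 0.085. Of its 36 reads at 12 months 21 came from replicate 7, without which its adjusted p by edgeR was 0.71. Over the leave-outs its log2 fold change ran from -1.48 to -0.44, and it was called in 1 of them, without 12 months replicate 2. The log2 fold changes of miR-19b-3p and miR-19a-3p were -0.29 ± 0.29 and -0.26 ± 0.44. The median over the 7 members was -0.96 against -0.03 over all 323.

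These calls rest in part on the highest 12-month libraries. Without 12 months replicate 7, which had the highest miR-93-5p and miR-17-5p of its age, edgeR called 0 of the 7 members. The log2 fold changes were then -0.98 for miR-106b-5p, -0.77 for miR-17-5p, -0.83 for miR-20a-5p and -0.59 for miR-93-5p. Without 12 months replicate 8 the calls of miR-17-5p (-0.83), miR-20a-5p (-1.10) and miR-93-5p (-0.63) were lost. Without replicate 4 those of miR-106b-5p (-1.06), miR-17-5p (-0.89) and miR-20a-5p (-1.12) were lost. The library that TMM took as its reference also changed without 12 months replicate 7 or 4, but not without replicate 8. The call of miR-20a-5p was lost in 23 of 37 leave-outs. It was also lost with 1 (-0.87) or 2 RUVs factors (-0.87), which model hidden differences between libraries, in DESeq2 with 1 such factor (-0.93) and with summed rows (-1.14). Over the leave-outs the highest adjusted p by edgeR was 0.11 for miR-106b-5p, 0.13 for miR-17-5p, 0.21 for miR-20a-5p and 0.11 for miR-93-5p. With other scalings (DESeq2 size factors, the total count, or the total outside miR-486) the 4 members were lower in every case. The median of the 323 microRNAs was -0.37 when scaled by the total count and -0.12 when scaled by the total outside miR-486, and relative to these medians the 4 members were at -0.67 to -1.33.

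**Figure D2:**
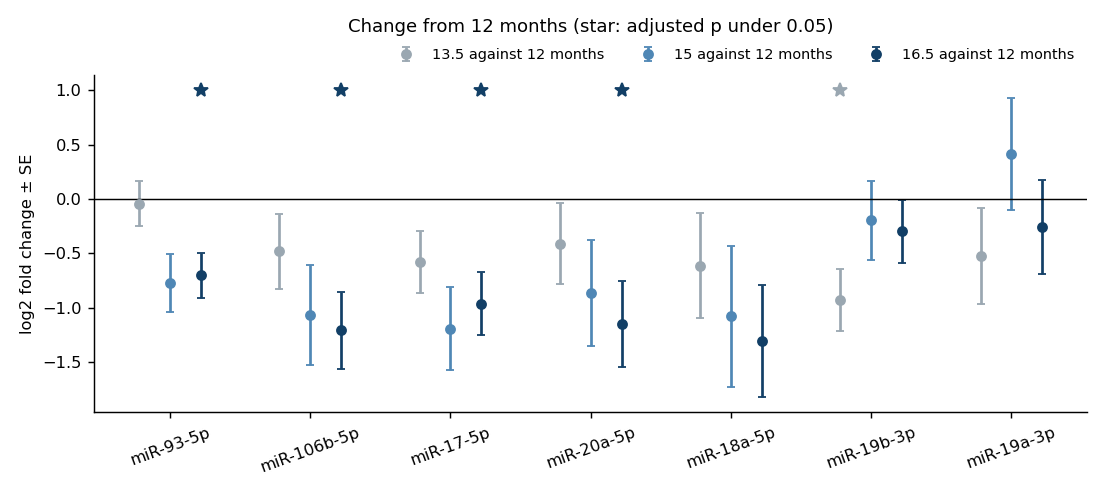
log2 fold change from 12 months with its standard error (y axis) for the 7 members tested with the lower filter (x axis), with 1 colour for each later age and a star where edgeR's adjusted p was under 0.05. The 4 members with the miR-17 seed were called at 16.5 months, and miR-19b-3p at 13.5 months.

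At the level of single libraries miR-106b-5p, which is cut from the same precursor as miR-93-5p, had 9.98 ± 6.63 CPM at 12 months and 6.28 ± 4.47 at 13.5 months. At 15 months the 5 libraries had 2.50, 5.10, 2.57, 7.28 and 4.88 CPM, and at 16.5 months the level was 4.09 ± 1.14. At 12 months 5 libraries had 3.89 to 5.55 CPM and 4 had 12.8 to 19.7 CPM, so that 4 of the 9 lay within the 16.5-month range of 1.76 to 5.48 CPM. miR-17-5p had 8.01 ± 4.58, 4.80 ± 2.09, 3.26 ± 1.47 and 3.88 ± 1.39 CPM at the 4 ages in order. Its reads ran from 11 to 166 a library at 12 months and from 4 to 103 at 16.5 months. miR-20a-5p had 1.04 ± 0.731, 0.707 ± 0.431, 0.491 ± 0.345 and 0.456 ± 0.302 CPM, from 0 to 28 reads a library. miR-18a-5p had 0.45 ± 0.543, 0.268 ± 0.211, 0.227 ± 0.151 and 0.167 ± 0.162 CPM at the 4 ages, from 0 to 21 reads.

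With the lower filter edgeR called 1 of the 7 members at 13.5 against 12 months (miR-19b-3p, where 21.7% of the 323 were called) and 1 at 16.5 against 13.5 months (miR-93-5p, where 26.6% were). It called 0 of 7 at 15 against 12 months, with 3 at an unadjusted p under 0.05 and 1 called by DESeq2, where 0.310% of the 323 were called. It called 0 of 7 at 15 against 13.5 months, with 2 at an unadjusted p under 0.05 and 1 by DESeq2, where 9.91% were. At 16.5 against 15 months edgeR called 0 of 7, with 0 at an unadjusted p under 0.05 and 0 by DESeq2, where 0.310% were. The log2 fold changes of miR-17-5p, miR-106b-5p and miR-20a-5p at 15 against 12 months were -1.19 ± 0.38, -1.06 ± 0.46 and -0.86 ± 0.49, with adjusted p of 0.16, 0.365 and 0.45 by edgeR.

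miR-19b-3p, regarded as the most oncogenic component of the miR-17-92 cluster, followed another course, with a low point at 13.5 months. Its level was 19.3 ± 8.95 CPM at 12 months (SD, n = 9) and 9.02 ± 6.57 at 13.5 months (n = 12). It was 16.4 ± 3.88 at 15 months (n = 5) and 15.3 ± 3.98 at 16.5 months (n = 11). The 12-month libraries ran from 9.94 to 36.1 CPM with a median of 16.8, and those at 13.5 months from 2.28 to 25.04 with a median of 7.23. The 5 libraries at 15 months had 11.2, 13.6, 17.7, 20.3 and 19.4 CPM, and those at 16.5 months ran from 10.2 to 21.1 with a median of 13.8. In all, 9 of the 12 libraries at 13.5 months were under the lowest library of each other age, at 2.28 to 8.13 CPM, and 3 were at 15.3 to 25.04 CPM. These 3 were replicates 10, 11 and 12, the last numbers of that age, and they also had its highest miR-17-5p and miR-106b-5p. The low point at 13.5 months thus comes from replicates 1 to 9, and the reason for the split was not tested.

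At 13.5 against 12 months miR-19b-3p was 2.11-fold lower (log2 fold change -1.08 ± 0.28, adjusted p = 0.0026 by edgeR), and 43.7% of the 87 were called. It was higher again at 15 months (0.85 ± 0.33, adjusted p = 0.038 by edgeR) and 16.5 months (0.74 ± 0.27, adjusted p = 0.023 by edgeR) against 13.5 months. At 16.5 against 12 months the log2 fold change was -0.34 ± 0.29 (adjusted p = 0.43 by edgeR) and at 15 against 12 months -0.23 ± 0.36 (adjusted p = 0.73 by edgeR). The value at 13.5 against 12 months stayed called in all 37 leave-outs with the higher filter, with log2 fold changes from -1.28 to -0.73, but not when scaled by the total count (-1.14). That at 15 against 13.5 months lost its call in 21 of 37 leave-outs (0.50 to 0.98). Among these were leave-outs of 12- and 16.5-month libraries, which are not in that comparison (0.60 without 12 months replicate 2). In those the TMM reference library changed, and the part of this was not tested. The value at 16.5 against 13.5 months lost its call in 5 of the 37 leave-outs, without 13.5 months replicate 1 (0.65), 4 (0.70) or 6 (0.63) or without 16.5 months replicate 6 (0.71) or 11 (0.65). With the lower filter both were 0.73 ± 0.34 (adjusted p = 0.18 by edgeR) and 0.63 ± 0.27 (adjusted p = 0.088 by edgeR), not called. Scaled by the total count they were 0.21 and 0.42, not called, where the median of the 87 microRNAs was itself shifted by -0.42 and -0.21. miR-19a-3p, which shares the seed, had 1.13 ± 0.825, 0.705 ± 0.73, 1.38 ± 0.581 and 0.909 ± 0.65 CPM at the 4 ages. Its log2 fold change was -0.52 ± 0.44 at 13.5 against 12 months and 0.93 ± 0.50 at 15 against 13.5 months, with adjusted p of 0.42 and 0.27 by edgeR.

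The levels of blood cell markers at 13.5 months differed in both directions from those at 12 months, and they are given without a test. The summed level of miR-142a-3p, miR-142a-5p, miR-223-3p, miR-150-5p and miR-155-5p, of white cells, had medians of 3089, 2086, 2902 and 2989 CPM at the 4 ages, with ranges of 2470 to 3588, 1263 to 3291, 2167 to 3387 and 2549 to 4716. Most of this sum was miR-142a-5p, with a median of 2759 CPM at 12 months and 1804 at 13.5 months. The lymphocyte markers of the list were higher at 13.5 months, miR-150-5p with medians of 138 and 199 CPM and miR-155-5p with 0.58 and 0.891. The sum of miR-451a, miR-144-3p, miR-144-5p and miR-16-5p, of red cells, had medians of 11887, 6806, 9738 and 8549 CPM at the 4 ages, with ranges of 6627 to 25731, 2778 to 13534, 4138 to 13069 and 4611 to 14382. The median of miR-486a-5p, left out of this sum, was 368948 CPM at 12 months and 413860 at 13.5 months. The median of miR-144-5p was 19.97 CPM at 12 months and 4.40 at 13.5 months, and it was 18.5 and 17.6 at the later ages. The median of miR-126a-3p, of platelets and endothelium, was under 1 CPM at each age (0.284 to 0.565). The part of these shifts in the values of miR-19b-3p and miR-93-5p was not tested.

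Ratios between 2 microRNAs of the same library do not depend on how libraries are scaled. In all 8 ratios were compared between the 6 pairs of ages, 48 tests in all, as the difference of mean log2 ratios with 0.5 added to each count, and 4 passed an adjusted p of 0.05 in 2-sided permutation tests. miR-17-5p shares a precursor with 1 copy of miR-19b-3p, while the other copy lies on the X chromosome, and the counts do not separate them. miR-19b-3p over miR-17-5p had mean log2 ratios of 1.35 ± 0.63, 0.74 ± 0.73, 2.40 ± 0.52 and 2.002 ± 0.49 at the 4 ages in order. It was higher by 1.66 at 15 than at 13.5 months (exact permutation p = 4.8e-04, adjusted 0.0078) and by 1.27 at 16.5 than at 13.5 months (permutation p = 1e-04, adjusted 0.0024). Against 12 months the differences were 1.05 at 15 months (exact p = 0.0070, adjusted 0.067) and 0.65 at 16.5 months (exact p = 0.015, adjusted 0.10), higher at the later age but past no adjusted threshold.

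The ratio of the members that passed the higher filter was added after their levels were seen, together with 3 arm ratios below (24 added tests, 5 of them past an adjusted p of 0.05). Mean log2 miR-19b-3p over miR-93-5p was -2.50 ± 0.42, -3.56 ± 0.58, -1.86 ± 0.36 and -2.04 ± 0.44 at the 4 ages. It was lower by 1.06 at 13.5 than at 12 months (exact permutation p = 4.6e-04, adjusted 0.0028). It was then higher by 1.70 at 15 than at 13.5 months (exact permutation p = 3.2e-04, adjusted 0.0026) and by 1.52 at 16.5 than at 13.5 months (permutation p = 1e-05, the smallest that 100000 resamples can give, adjusted 2.4e-04). The lowest 15-month library, at -2.41, was the only one of its age within the 13.5-month range of -4.31 to -2.34. At 15 and at 16.5 months against 12 months the differences were 0.64 (exact p = 0.013, adjusted 0.052) and 0.46 (exact p = 0.019, adjusted 0.064).

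No ratio between members with the same seed passed the adjusted threshold. miR-93-5p over miR-17-5p differed most at 13.5 against 12 months (0.44, exact p = 0.028, adjusted 0.14), and miR-106b-5p over miR-93-5p at the same ages (-0.62, exact p = 0.084, adjusted 0.255). No difference of miR-20a-5p over miR-17-5p or of miR-19a-3p over miR-19b-3p had an exact or resampled permutation p under 0.05 (lowest 0.31 and 0.073). The mean log2 ratios of these 4 pairs lay between 3.85 and 4.30, -4.22 and -3.60, -3.05 and -2.58, and -4.23 and -3.57 over the 4 ages. A p that misses the threshold does not show that the ratios were equal, and the SDs within an age ran from 0.32 to 1.12.

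**Figure D3:**
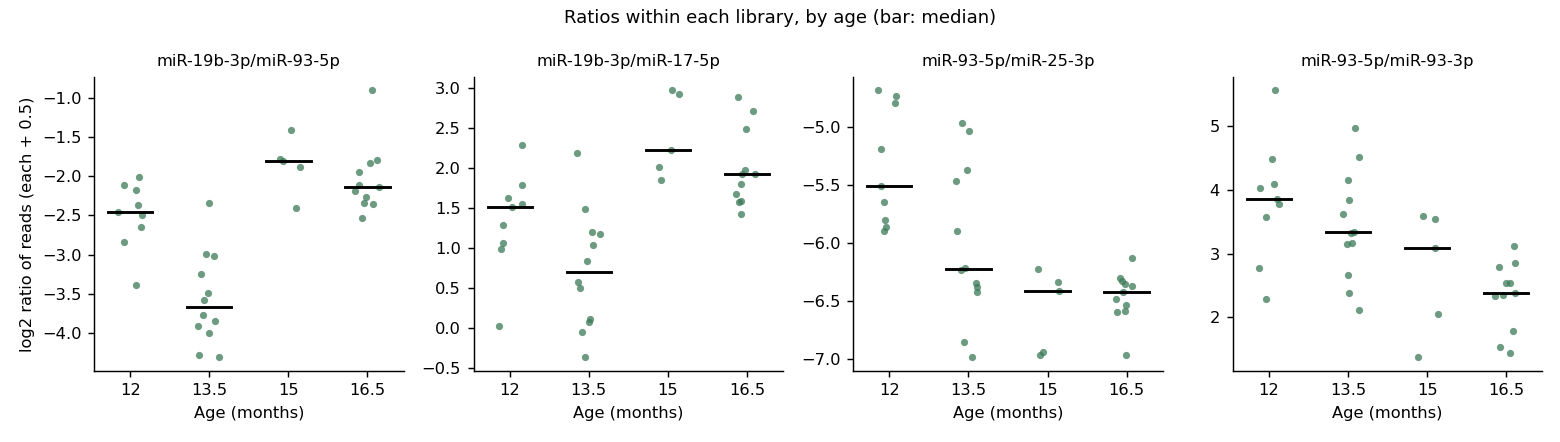
log2 ratio of reads within a library, with 0.5 added to each count (y axis), by age in months (x axis) for 4 pairs of microRNAs, each point a library and each bar the median. Both ratios with miR-19b-3p were lowest at 13.5 months and highest at 15 months, and miR-93-5p over miR-25-3p was lower in every library at 15 and 16.5 months than in any at 12 months.

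The cluster mates with the miR-25/92 seed were far more abundant than the members. miR-25-3p, from the third hairpin of the miR-106b-25 cluster, had 1796624 reads, and miR-92a-3p 3732788. Their mature sequences are shown to compare the seed.
mmu-miR-25-3p: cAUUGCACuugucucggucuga
mmu-miR-92a-3p: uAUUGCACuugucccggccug
miR-25-3p had 4101 ± 604, 5747 ± 950, 5583 ± 465 and 5458 ± 844 CPM at the 4 ages. With the higher filter it was higher by 0.49 ± 0.11 on the log2 scale at 13.5 months (adjusted p = 3.8e-04 by edgeR) and by 0.41 ± 0.11 at 16.5 months (adjusted p = 0.0054 by edgeR) than at 12 months, in contrast to miR-93-5p. Mean log2 miR-93-5p over miR-25-3p was -5.34 ± 0.50, -6.01 ± 0.67, -6.57 ± 0.35 and -6.46 ± 0.22 at the 4 ages. It was lower by 1.23 at 15 than at 12 months (exact permutation p = 0.0010, adjusted 0.012) and by 1.12 at 16.5 than at 12 months (exact permutation p = 6.0e-06, adjusted 2.9e-04). All libraries at 15 months (-6.96 to -6.22) and at 16.5 months (-6.97 to -6.13) were under all those at 12 months (-5.89 to -4.68). Without the 4 shallow libraries the difference at 15 months was -1.115 and no longer passed the adjusted threshold.

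miR-92a-3p had 7206 ± 3904, 22451 ± 18931, 9534 ± 6480 and 9736 ± 3757 CPM at the 4 ages. It was higher by 1.64 ± 0.38 on the log2 scale at 13.5 than at 12 months (adjusted p = 8.2e-04 by edgeR), the age at which miR-19b-3p was lowest. Mean log2 miR-17-5p over miR-92a-3p was -9.87 ± 1.47, -11.89 ± 1.66, -11.37 ± 1.62 and -11.25 ± 1.02 at the 4 ages, with no adjusted p under 0.05 (lowest 0.078, at 13.5 against 12 months, exact permutation p = 0.0098). miR-363-3p, the third cluster mate, had 410 reads in 37 libraries. With the lower filter it had a log2 fold change of 0.45 ± 0.32 at 16.5 against 12 months (adjusted p = 0.40 by edgeR).

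The arms of the hairpins were used unequally. Of the reads of both arms the 5p arm held 89.8% for miR-93, 82.9% for miR-20a and 33.2% for miR-17, but 3.03% for miR-106b and 2.60% for miR-18a. The 3p arms of the hairpins compared below are shown, of which those of miR-106b, miR-17 and miR-18a outnumbered the members.
mmu-miR-106b-3p: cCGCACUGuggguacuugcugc
mmu-miR-17-3p: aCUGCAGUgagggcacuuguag
mmu-miR-18a-3p: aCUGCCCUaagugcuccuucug
mmu-miR-93-3p: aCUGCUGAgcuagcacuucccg
miR-106b-3p had 68765 reads against 2148 of miR-106b-5p and was higher in all 37 libraries. miR-17-3p had 3514 reads and was higher than miR-17-5p in 34 libraries, and miR-18a-3p had 3713 reads and was higher than miR-18a-5p in 37. miR-93-5p was the higher arm in all 37 libraries, with 3172 reads of miR-93-3p. For miR-19a, both miR-19b hairpins and miR-106a no read of the other arm was counted, and miR-20a-3p and miR-20b-3p had 51 and 3 reads.

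**Figure D4:**
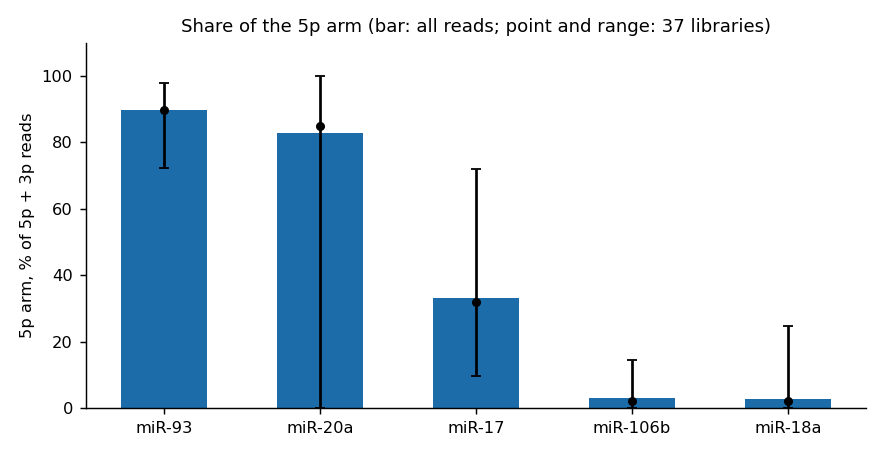
Share of the 5p arm in the reads of both arms (y axis, percent) for 5 hairpins (x axis). Bars give all reads together, points the median and lines the range over the libraries with reads. miR-93 was counted mostly as 5p (89.8%), miR-106b and miR-18a mostly as 3p (3.03% and 2.60% 5p).

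Of the 10 other arms 4 were tested with the lower filter. At 16.5 against 12 months edgeR called 1 of the 4, where 14.2% of the 323 microRNAs were called and 9.60% were called lower. The arm called was miR-93-3p, which was higher (log2 fold change 0.76 ± 0.23, adjusted p = 0.023 by edgeR). Its level was 7.48 ± 2.90, 8.67 ± 3.39, 9.31 ± 3.83 and 12.5 ± 3.23 CPM at the 4 ages. Mean log2 miR-93-5p over miR-93-3p was 3.83 ± 0.94, 3.44 ± 0.84, 2.73 ± 0.98 and 2.33 ± 0.54 at the 4 ages. It was lower by 1.49 at 16.5 than at 12 months (exact permutation p = 2.8e-04, adjusted 0.0026) and by 1.11 at 16.5 than at 13.5 months (permutation p = 0.0012, adjusted 0.0057). miR-106b-3p had 208 ± 58.9, 228 ± 76.5, 196 ± 26.6 and 195.5 ± 23.8 CPM at the 4 ages and a log2 fold change of -0.07 ± 0.18 at 16.5 against 12 months (adjusted p = 0.86 by edgeR). The difference in log2 miR-106b-5p over miR-106b-3p was -0.995 at these ages (exact p = 0.031, adjusted 0.093).

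miR-17-3p had a log2 fold change of -0.24 ± 0.21 at 16.5 against 12 months and -0.60 ± 0.20 at 16.5 against 13.5 months (adjusted p = 0.53 and 0.022 by edgeR). miR-18a-3p had one of 0.20 ± 0.23 at 16.5 against 12 months (adjusted p = 0.66 by edgeR). The differences in log2 miR-17-5p over miR-17-3p and in miR-18a-5p over miR-18a-3p at these ages were -0.61 (exact p = 0.19, adjusted 0.37) and -1.28 (exact p = 0.035, adjusted 0.093).

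Across libraries the members varied together. After the mean of each age was removed from log2(CPM + 0.5), miR-93-5p and miR-106b-5p had a Pearson r of 0.85 and a Spearman rho of 0.91 over 37 libraries (permutation within ages, p = 1e-05 for both, the smallest that 100000 resamples can give, adjusted 2e-05 over 6 pairs). miR-17-5p and miR-93-5p, which lie on different chromosomes, had an r of 0.85 and a rho of 0.90 (permutation p = 1e-05 for both, adjusted 2e-05). miR-19a-3p and miR-19b-3p had an r of 0.81 and a rho of 0.76 (permutation p = 1e-05 for both, adjusted 2e-05). Within ages r ran from 0.69 to 0.91 for the first pair, from 0.68 to 0.97 for the next and from 0.63 to 0.91 for the last.

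Other pairs had lower values. miR-17-5p and miR-19b-3p had an r of 0.61 and a rho of 0.61 (permutation p = 1.1e-04 and 2.8e-04, adjusted 1.7e-04 and 4.2e-04), and miR-17-5p and miR-20a-5p had 0.58 and 0.60 (permutation p = 6.4e-04 and 4.4e-04, adjusted 7.7e-04 and 5.3e-04). The last pair had an r of -0.09 within 16.5 months and 0.61 to 0.86 within the other ages. miR-93-5p and miR-25-3p had an r of -0.01 and a rho of -0.09 (permutation p = 0.93 and 0.61, adjusted 0.93 and 0.61), from -0.62 at 13.5 months to 0.71 at 16.5 months. Without the 2 libraries farthest from the median the 6 values of r were 0.87, 0.85, 0.78, 0.66, 0.53 and 0.11 in the order given here. Relative to the reads outside miR-486 in place of the TMM scale, r of miR-93-5p with miR-25-3p was 0.50 (permutation p = 0.0062). Values of 1 library share its depth and its scaling, and the part of this in the correlations was not tested.

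**Figure D5:**
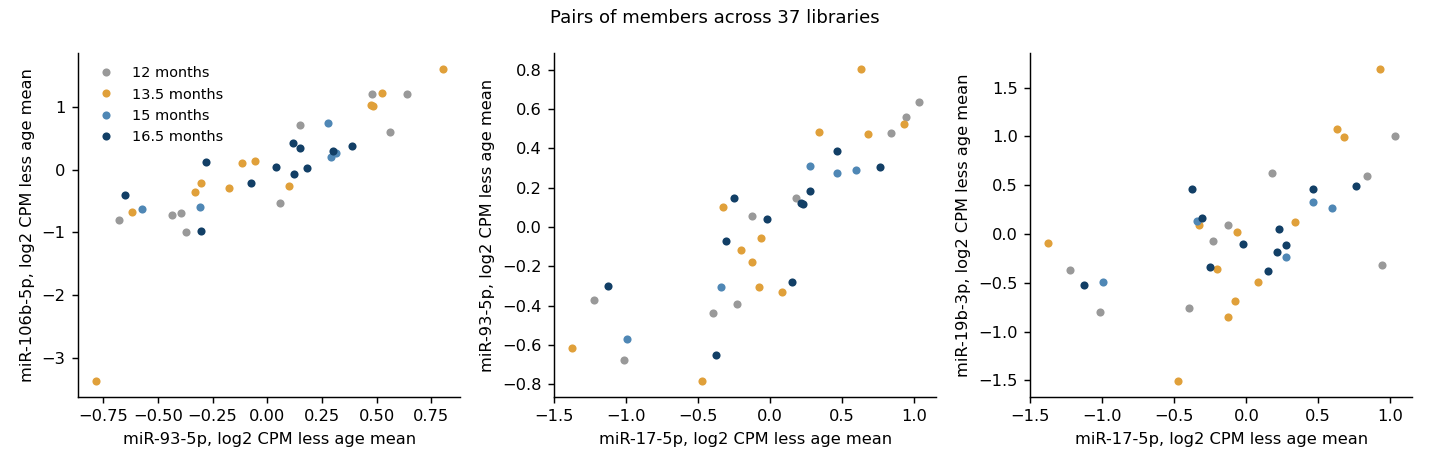
log2 CPM less the mean of its age for 3 pairs of members, with 1 member on each axis, each point a library and each colour an age. miR-93-5p with miR-106b-5p (r = 0.85) and miR-17-5p with miR-93-5p (r = 0.85) were closer than miR-17-5p with miR-19b-3p (r = 0.61), and 1 library at 13.5 months had no read of miR-106b-5p.

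Of the 87 microRNAs past the higher filter, the 3 whose log2(CPM + 0.5) was most like miR-93-5p over the 37 libraries were miR-15a-5p (r = 0.91), miR-29a-3p (r = 0.86) and miR-532-5p (r = 0.77). Those most like miR-19b-3p were miR-30e-5p (r = 0.88), miR-181c-5p (r = 0.82) and miR-192-5p (r = 0.81). No member was among either 3, and only these members of the 9 passed that filter.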

How the data were processed

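Small RNA libraries (TruSeq Small RNA kit, 50 bp single end) were analysed from blood of the learning group. Per the study's methods, the authors trimmed adapters with cutadapt, checked reads with FastQC (0.11.5 in the submitters' processing notes), discarded short reads and counted mature microRNAs with miRDeep2 on mm10 without mismatch. The authors deposited whole-number counts without normalization, 1 row per mature microRNA and precursor. Of 1915 microRNAs 115 had several rows, and the first row was used. The deposited normalized table was not used, and 0 columns of per-sample values were left out. Reads carry no molecular identifiers, so floors cover counting error only, and counts of different microRNAs are not corrected for cloning efficiency.

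Counts were tested with edgeR 4.0.16 in R 4.3.3 (TMM factors, library size as the total of first rows, quasi-likelihood F-test with all 37 libraries and 4 ages in 1 fit, Benjamini-Hochberg adjustment, threshold 0.05). The filter kept 87 microRNAs that had over 100 reads in 50% or more of the libraries, and 323 where over 1 read sufficed. The second filter was adopted as a base for the rarer members after seeing the data. The common biological coefficient of variation was 0.405 and 0.416. Ratios and correlations were tested by permutation (Python 3.11.15, numpy 2.4.6), exact where a group had under 10 libraries and otherwise with 100000 resamples. DESeq2 1.42.0, other scalings, hidden factors by the RUVs formula, summed rows, a replicate block and leaving out each library were alternatives. The edgeR fit, the recovery of 1 hidden factor and the permutation test of ratios were checked on simulated data. The DESeq2 fits were not. No 2 libraries were identical, and within an age the chi-square between their counts was at least 31.7 per degree of freedom. Named microRNAs are the members, their other arms, their cluster mates, blood and tissue markers, and the 3 microRNAs most like each member past the filter. The members and lists were chosen with earlier results of these data known. Sequences and positions are from RefSeq (GRCm38.p6, all 9 members matched by name), and host genes from GENCODE vM21 on the same build.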

Additional observations from a re-analysis of the deposited data

Results flagged for a closer look

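In 1 of 38 groups of libraries examined for a single value far from the rest, the level of miR-18a-5p at 12 months, 12 months replicate 7 stood apart with 1.855 CPM (21 reads). The distance to its nearest neighbour made up 0.777 of the spread between lowest and highest at that age. Chance alone marks about 1 in 20 such groups. The same library had the highest miR-93-5p and miR-17-5p of its age.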

How the results depend on the processing

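Calls at a shallow depth depended on the scaling, the filter and single libraries, and the causes were not tested. Of the 2 members past the higher filter, scaling by the total count alone left 1 called at any age, 0 at 13.5 against 12, 1 at 15 against 12, 0 at 16.5 against 12, 0 at 15 against 13.5 and 0 at 16.5 against 13.5 months. At 15 against 12 months 1 was also called by DESeq2, with 1 or 2 RUVs factors, by DESeq2 with 1 RUVs factor and with summed rows. At 16.5 against 12 months the filter of over 1 read gave 4 of the 7 members that it kept, and of the members counted here only miR-93-5p. At 15 against 13.5 months 0 were called when scaled outside miR-486, with the filter of over 1 read or with none, and 1 with summed rows or without the 4 shallow libraries. At 16.5 against 13.5 months 1 was called when scaled outside miR-486, with summed rows or with the filter of over 1 read, and 0 without a filter.

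Of the 7 members past the lower filter, 5 were called at any age by DESeq2, with 2 RUVs factors and by DESeq2 with 1 RUVs factor. Scaling by the total count left 0 at 13.5 against 12 and 0 at 16.5 against 13.5 months. In the order DESeq2, 1 RUVs factor, 2 RUVs factors and DESeq2 with 1 RUVs factor, 1, 2, 3 and 3 were called at 15 against 12 months and 1, 4, 5 and 4 at 15 against 13.5 months, and 5 with each use of RUVs factors at 16.5 against 13.5 months. Of all 323 microRNAs DESeq2 without such factors called 130 at any age, 6 at 15 against 12 and 51 at 15 against 13.5 months. For RUVs factors, other scalings, summed rows and single leave-outs the share of all microRNAs called was not counted. The counts of members under those settings therefore cannot be set against a background. Leaving out each library in turn gave 1 to 2 calls at any age, 0 to 1 at 15 against 12, 0 to 1 at 16.5 against 12, 1 to 2 at 15 against 13.5 and 1 to 2 at 16.5 against 13.5 months with the higher filter. With the lower filter it gave 1 to 4 at any age, 0 to 1 at 13.5 against 12, 0 to 5 at 16.5 against 12, 0 to 2 at 15 against 13.5 and 1 to 2 at 16.5 against 13.5 months. The planned ratios gave 4 to 10 calls and the added ones 5 to 8. The library that TMM took as its reference changed in 21 of 37 leave-outs with the higher filter and in 9 of 37 with the lower. The part of this change in the calls lost in leave-outs was not tested.

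Libraries with the same number did not deviate together over 44 pairs (mean correlation -0.035, 20 over 0.1), so the numbers were not taken to pair them. With the number as a replicate block 1 member was called at 15 against 13.5 months with the higher filter, and with the lower filter 2 at 13.5 against 12, 1 at 15 against 13.5 and 2 at 16.5 against 13.5 months. The paired difference of miR-19b-3p over miR-17-5p at 15 against 13.5 months was then 1.58, that of miR-19b-3p over miR-93-5p 1.86 and that of miR-93-5p over miR-25-3p at 15 against 12 months -1.19, none of them past the threshold, where 5 pairs cannot go below an exact p of 0.0625. The correlation of miR-93-5p with miR-25-3p turned from -0.01 to 0.1077 without 2 libraries and to 0.5004 relative to reads outside miR-486. Of the ratio differences that were not called, 7 of 44 planned and 4 of 19 added ones changed sign under some alternative.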
